A study of Petunia x hybrida with 9 samples.

Results

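Arogenate dehydratases, usually annotated under the older name prephenate dehydratase, were followed through petunia corolla RNA at the level of single loci, of the tomato proteins they match, and of the whole family. Members were all loci whose best tomato protein carries prephenate or arogenate dehydratase in its name, which gave 19 of the 94534 loci of the expression table. They matched 4 tomato proteins: Solyc06g074530.1.1 (8 loci), Solyc11g072520.1.1 (5 loci), Solyc11g066890.1.1 (2 loci) and Solyc02g080620.2.1 (4 loci), the last named as a prephenate dehydratase family protein. All 19 matched names read prephenate dehydratase. A tomato match names the closest tomato protein and is not the name of a petunia gene.

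Arogenate dehydratase removes water and carbon dioxide from arogenate and so makes phenylalanine, chiefly in plastids. The plant enzymes combine a catalytic domain with a C-terminal ACT domain, through which phenylalanine inhibits them. Petals of scented petunias draw on phenylalanine for volatile benzenoids and phenylpropanoids, and the precursors reach this step through the shikimate pathway, chorismate mutase and prephenate aminotransferase.

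The 9 libraries were made from corollas of the scented Petunia hybrida cultivar Mitchell, with 3 libraries from wild type and 3 from each of the lines A4 and A9. Both lines are labelled as overexpressing PhADT, a petunia arogenate dehydratase, and the series title describes it as a site-directed mutant. RNA of at least 8 corollas was taken at hour 20 on day 2 after the flowers opened. The plants stood in a greenhouse with light from 6 am to 9 pm. The labels enter the same mutation site for every sample, also for wild type, and it was left aside. The promoter, the wild-type or mutant sequence of the transgene and the number of plants are not given in the labels, and each line is a single transgenic line. Nothing says that replicates came from separate plants; p-values then measure only how these samples vary, and that variation may be technical. In bulk tissue, fewer cells of a type and less RNA per cell cannot be told apart.

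Levels are in FPKM, which scales the fragments of a locus by its length and by the depth of the library; the steps between values match locus lengths shortened by 275 to 290 bases. The steps between low values correspond to 30800000 to 32700000 fragments per wild-type library, 30600000 to 41700000 in A4 and 31900000 to 43100000 in A9. The correlation of log2 values across loci was 0.980 to 0.989 within groups and 0.922 to 0.961 between groups. Names of green-tissue proteins (74 loci) summed to 991.4 to 1267 FPKM in wild type, 565.7 to 929.8 FPKM in A4 and 501.0 to 797.9 FPKM in A9, so both lines lay below wild type. Pollen or anther names (60 loci) summed to 359.7 to 428.8 FPKM in wild type, 320.5 to 385.8 FPKM in A4 and 330.6 to 370.0 FPKM in A9. The part of these differences in the results was not tested. The words used for petal-identity MADS factors matched 0 loci, so the corolla label was not checked by them.

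The 19 loci fell into 6 assembled components, sets of contigs that share a prefix in the table. Within a component several loci aligned with the same residues, so its loci are not independent, and the split of fragments between them is uncertain. The contig sequences were not compared. In TR26290, XLOC_031411 (3784 bases) and XLOC_031413 (1053 bases) had 193 and 197 estimated fragments in wild-type replicate 1. Summed FPKM, totals and shares may therefore count some fragments more than once. Component TR38487 held 3 loci matching Solyc06g074530.1.1 and XLOC_053182, the long locus matching Solyc11g066890.1.1. XLOC_053180 (1890 bases) and XLOC_053181 (1525 bases) aligned with residues 1 to 432 and 1 to 433 of the tomato protein, at 89.35% and 88.22% identity. XLOC_053182 (937 bases) aligned with residues 1 to 253 of its match, at 80.84% identity. XLOC_053179 was 289 bases long and aligned with residues 225 to 320, at 92.71% identity.

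TR19595 was a separate component for the same tomato protein. XLOC_018765 (1111 bases) aligned with residues 1 to 346 of Solyc06g074530.1.1 at 86.13% identity. XLOC_018769, XLOC_018770, XLOC_018771 and XLOC_018772 were 5416 to 7412 bases long and all aligned with residues 1 to 433, at 87.99% identity, through contig bases 503 to 1774. That stretch took up 17.2% to 23.5% of each of these 4 loci. TR26290 held all 5 loci of Solyc11g072520.1.1: XLOC_031411, XLOC_031413 and XLOC_031414 aligned from residue 6 to residues 271 to 297, and XLOC_031410 and XLOC_031412 aligned with residues 270 to 383, nearer the end that carries the ACT domain. The Solyc02g080620.2.1 loci came from TR47564 (XLOC_080825 and XLOC_080826, 71.43% and 70.78% identity) and TR8716 (XLOC_090728 and XLOC_090729, 74.09% and 81.44% identity). The weakest match was XLOC_014054 of TR1772, 45 residues of Solyc11g066890.1.1 at 62.22% identity.

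**Figure D1:**
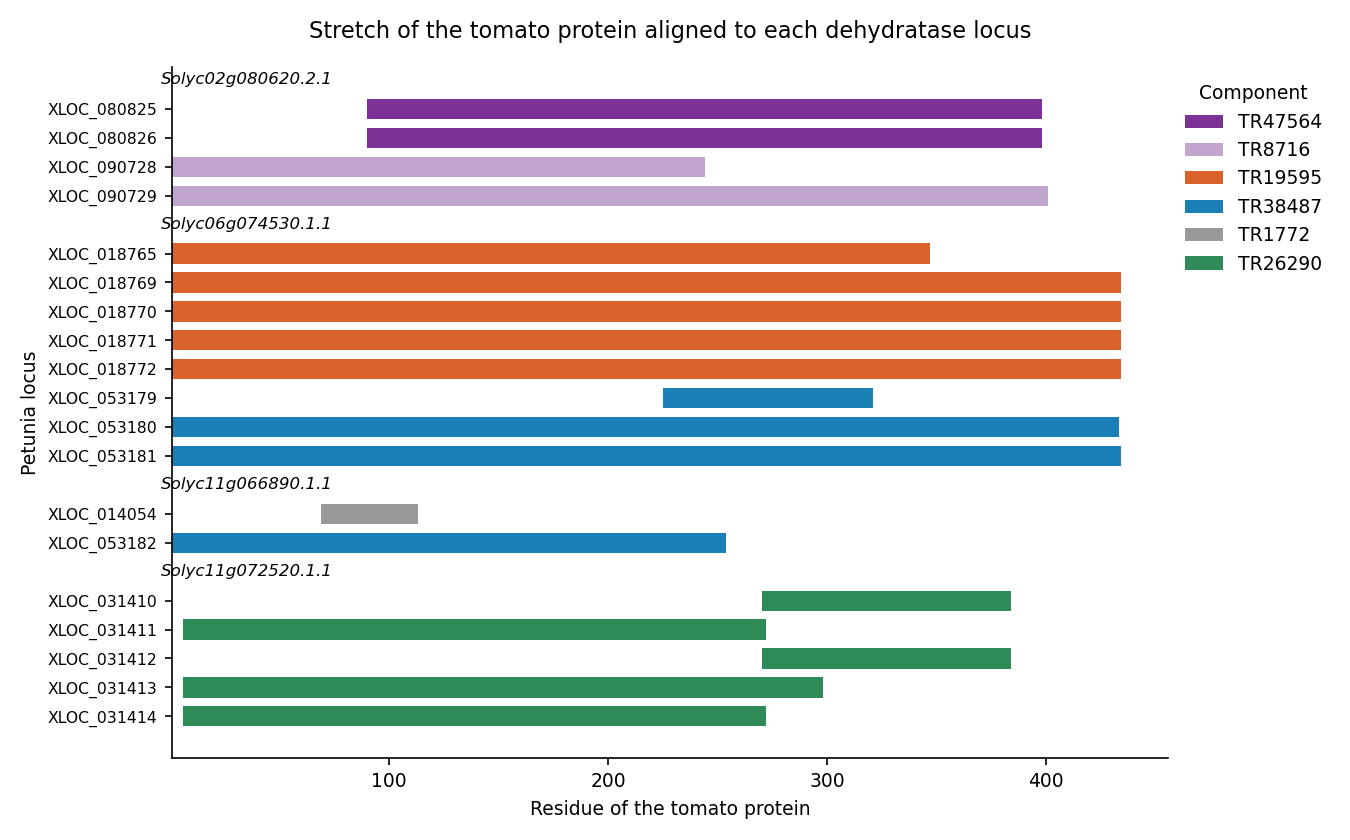
Stretch of the matched tomato protein (residues, x axis) aligned with each of the 19 petunia loci (y axis), grouped by tomato protein and coloured by assembled component. Full-length bars for Solyc06g074530.1.1 come from both TR19595 and TR38487, and the loci of Solyc11g072520.1.1 start at residue 6 and end at residue 271 or 297, or cover residues 270 to 383.

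In wild-type corollas nearly all dehydratase signal came from TR38487. Summed FPKM was 3132 ± 505.6 (SD, n = 3) for Solyc06g074530.1.1, 310.7 ± 59.5 for Solyc11g066890.1.1, 20.3 ± 1.95 for Solyc11g072520.1.1 and 2.65 ± 0.247 for Solyc02g080620.2.1. Neighbours in this order did not overlap in any wild-type library. The wild-type mean for Solyc06g074530.1.1 was 10.1 times that for Solyc11g066890.1.1 and 154.0 times that for Solyc11g072520.1.1. Within Solyc06g074530.1.1, XLOC_053181 made up 55.2% ± 3.20, XLOC_053180 24.6% ± 1.23 and the short XLOC_053179 20.1% ± 4.44 of the summed FPKM in wild type. The length of XLOC_053179, 289 bases, is close to the 275 to 290 bases by which lengths are shortened, so its FPKM divides by very little, its fragments were not estimated and its share is uncertain. Without it the change of Solyc06g074530.1.1 against wild type was -0.64 in A4 (limma adjusted p = 0.00286) and 0.03 in A9 (adjusted p = 0.877).

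**Figure D2:**
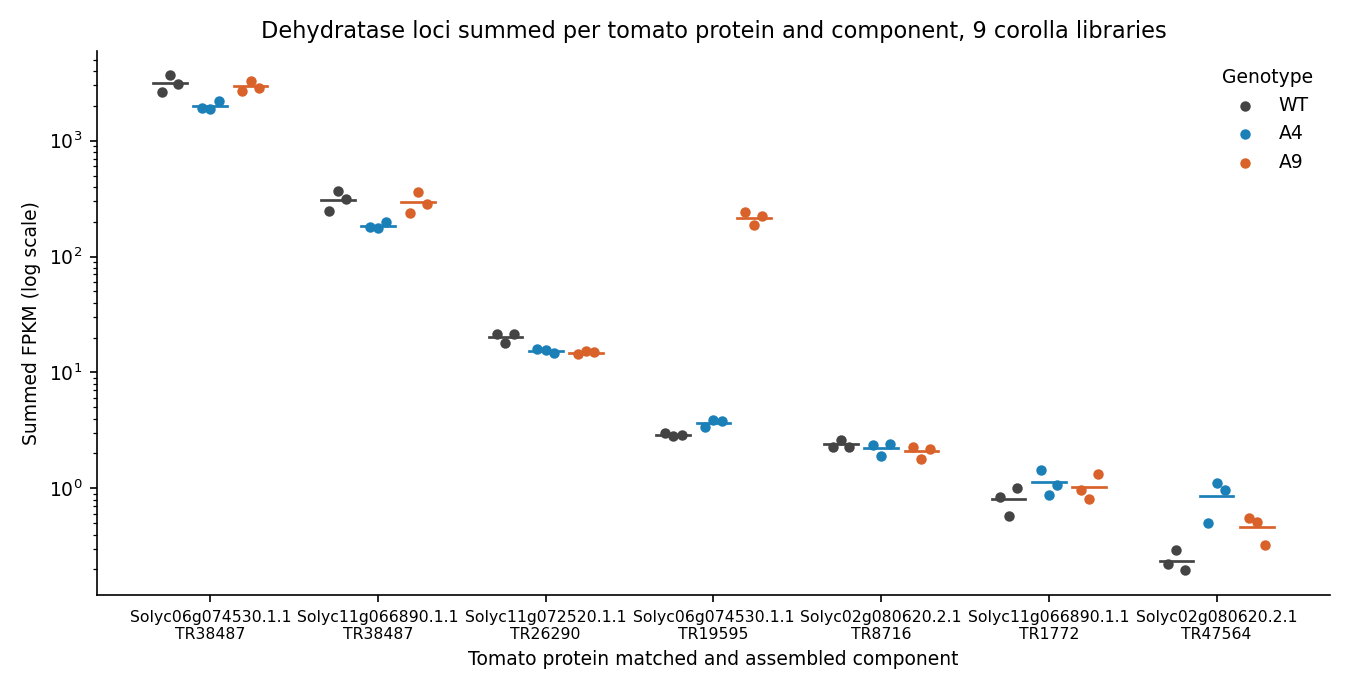
FPKM of the dehydratase loci summed per tomato protein and assembled component (log scale, y axis) in the 9 libraries; points are libraries and bars are group means. TR19595 rises from 2.89 FPKM in wild type to 216.9 FPKM in A9 while TR38487 of the same tomato protein stands at 3129, 1998 and 2936 FPKM in wild type, A4 and A9.

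The libraries labelled A4 showed lower dehydratase RNA, and no locus of the family was called higher there in the reported fit although the line is labelled an overexpressor. For this reason directions in A4 rest on the label of the libraries. Of the 15 dehydratase loci that averaged 1 FPKM or more over the libraries, 7 were lower than in wild type, 0 were higher and 8 did not pass the test, limma on log2(FPKM + 1) with p-values adjusted over all 53284 loci tested and a threshold of 0.05. Over all loci, 32.1% were called, 15.6% higher and 16.6% lower. The count of 7 was 4 with median-ratio scaling, 3 in a fit of the 2 groups only, 4 without wild-type replicate 1, A4 replicate 1 or A4 replicate 2, and 3 without wild-type replicate 3 or A4 replicate 3. The median log2 change was -0.25 over the 15 dehydratase loci and -0.04 over all loci.

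The most abundant locus, XLOC_053181, was at 1552, 1979 and 1634 FPKM in the wild-type libraries, 1095, 1028 and 1192 FPKM in A4 and 1469, 1759 and 1573 FPKM in A9. The A4 libraries all lay below the wild-type ones, and the A9 libraries overlapped them. The log2 change was -0.63 (SE 0.12, limma adjusted p = 0.00394) in A4, or -0.36 (adjusted p = 0.0244) with quantile normalization, and -0.10 (SE 0.12, adjusted p = 0.599) in A9.

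XLOC_053180 behaved likewise, with 685.7, 878.4 and 735.6 FPKM in wild type, 484.1, 455.4 and 514.7 FPKM in A4 and 636.9, 818.5 and 694.7 FPKM in A9. Again A4 stood below wild type without overlap, and A9 overlapped it. In A4 it fell by 0.65 on the log2 scale (SE 0.13, limma adjusted p = 0.00466), and with quantile normalization the change was -0.34 (adjusted p = 0.0706). The short XLOC_053179 was at 399.6, 789.6 and 733.5 FPKM in wild type and 337.6, 408.5 and 480.2 FPKM in A4, groups that overlapped through wild-type replicate 1. Its log2 change of -0.60 (SE 0.25) had a limma adjusted p of 0.0966 in A4. Without wild-type replicate 1 the adjusted p was 0.00595, and with the replicate block it was 0.0368.

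XLOC_053182, the abundant locus matching Solyc11g066890.1.1, was at 248.6, 367.7 and 313.4 FPKM in wild type, 179.0, 176.0 and 197.3 FPKM in A4 and 237.5, 357.9 and 286.3 FPKM in A9. The A4 libraries were again all below wild type, and A9 overlapped it. In A4 it fell by 0.73 on the log2 scale (SE 0.18, limma adjusted p = 0.0131), and in A9 the change was -0.08 (SE 0.18, adjusted p = 0.80). At XLOC_053180, XLOC_053181 and XLOC_053182 alike, A9 was below the wild-type library of the same number in 3 of 3 pairs, and with the replicate block the limma adjusted p were 0.585, 0.562 and 0.714.

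A9 differed from wild type at the other component for Solyc06g074530.1.1. XLOC_018765 was at 0.0389, 0 and 0 FPKM in wild type, 0.0291, 0 and 0.0579 FPKM in A4 and 108.2, 80.8 and 97.0 FPKM in A9. These values correspond to 1, 0 and 0 fragments in wild type, 1, 0 and 2 in A4 and 3118, 2911 and 2587 in A9, so the locus had next to no reads outside A9. Its log2 change of 6.56 in A9 (SE 0.10, limma adjusted p = 1.61e-09) depends on the pseudocount and was 9.73 with a pseudocount of 0.1. XLOC_018765 passed the filter through A9 alone, so this p-value is no support by itself.

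The 4 long loci of TR19595 carried low signal in all libraries and much more in A9. XLOC_018769 was at 0.932, 0.876 and 0.784 FPKM in wild type, 1.04, 1.21 and 1.27 FPKM in A4 and 38.1, 29.8 and 36.0 FPKM in A9. XLOC_018770 was at 0.980, 0.952 and 0.991 FPKM in wild type, 1.02, 1.23 and 1.14 FPKM in A4 and 39.8, 31.5 and 38.1 FPKM in A9. In each, A9 lay far above the other groups, and the A4 libraries all lay above the wild-type ones. Their log2 changes in A9 were 4.25 and 4.24 (SE 0.10 and 0.09, limma adjusted p = 1.25e-08 and 8.96e-09). XLOC_018771 and XLOC_018772 rose by 4.09 and 4.12 (SE 0.09 and 0.10, limma adjusted p = 5.76e-09 and 1.25e-08).

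A9 means of these 4 loci were 37.4 to 48.9 times the wild-type means. All 5 loci of TR19595 had wild-type means under 1 FPKM, and XLOC_018765, XLOC_018771 and XLOC_018772 had means under 1 FPKM in A4 too. These 3 passed the filter through A9 alone, so their count and p-values there are no support by themselves. In that comparison 5 dehydratase loci were higher than wild type, 2 were lower and 8 did not pass, beside 19.2% of all loci called, 8.98% higher and 10.3% lower. The count of lower loci was 1 without wild-type replicate 1 or 3 and without A9 replicate 1 or 3. The median log2 change was -0.10 over the 15 loci and -0.01 over all loci. Both line comparisons use the same wild-type libraries.

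In A4 none of the 5 TR19595 loci passed the test, with log2 changes of 0.02 to 0.22. Summed per component, TR19595 was at 2.98, 2.84 and 2.87 FPKM in wild type, 3.40, 3.89 and 3.78 FPKM in A4 and 241.9, 185.9 and 222.9 FPKM in A9. The 3 groups did not overlap, and A4 stood slightly above wild type. The A4 change of 0.27 (SE 0.10) had a limma adjusted p of 0.0607, and the A9 change was 5.80 (SE 0.10, adjusted p = 9.15e-09). The A4 change passed the threshold with a pseudocount of 0.1 (adjusted p = 0.0315), with median-ratio scaling (0.0478), in a fit of the 2 groups only (0.0441) and without A9 replicate 1 (0.0465) or 2 (0.0221). With a pseudocount of 0.1, XLOC_018769 (adjusted p = 0.0365) and XLOC_018771 (adjusted p = 0.0270) were called higher in A4. With quantile normalization the A4 changes of XLOC_018765, XLOC_018771 and XLOC_018772 were negative.

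**Figure D3:**
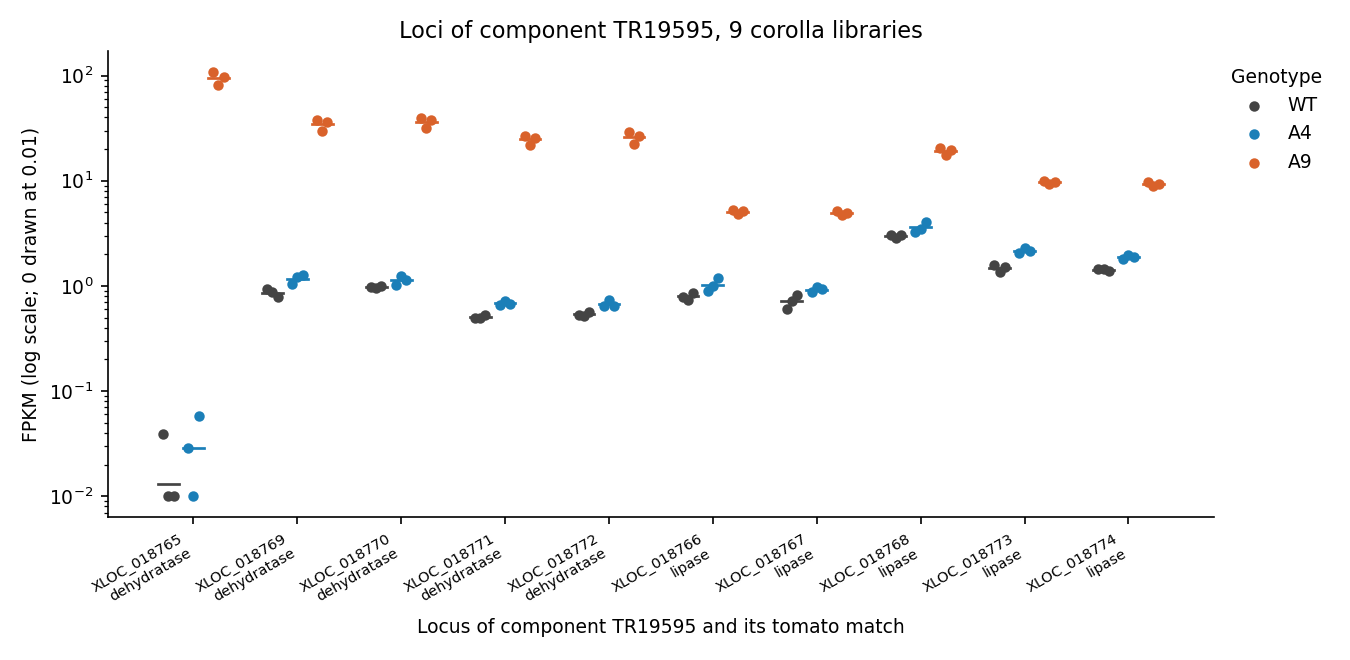
FPKM (log scale, with 0 drawn at 0.01) of the 10 loci of component TR19595 in the 9 libraries, named by locus and tomato match; points are libraries and bars are group means. A9 exceeds both other groups at every locus, from 80.8 to 108.2 FPKM at XLOC_018765 and from 4.74 to 5.11 FPKM at the lipase locus XLOC_018767.

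At the 4 long dehydratase loci of TR19595 the alignment covered only part of the contig, and only the best match is listed per locus. The other 5 loci of TR19595 matched Solyc03g122290.2.1, a lipase family protein, and these were also higher in A9. XLOC_018766 and XLOC_018767 had means of 0.793 and 0.711 FPKM in wild type and 1.02 and 0.924 FPKM in A4. Both passed the filter only through A9, so their A9 calls are no support by themselves. XLOC_018768, aligned with residues 1 to 421 of the lipase at 86.49% identity, rose from 2.98 ± 0.114 FPKM in wild type to 19.1 ± 1.49 FPKM in A9 (log2 change 2.33, SE 0.09, limma adjusted p = 3.70e-07). A9 means of the 5 lipase loci were 6.41 to 6.92 times the wild-type means, against 37.4 to 48.9 times at the 4 long dehydratase loci. In A4 the ratios to wild type were 1.21 to 1.45 at the lipase loci and 1.16 to 1.36 at the long dehydratase loci. XLOC_018773 (log2 change 0.34, limma adjusted p = 0.00692) and XLOC_018774 (0.25, adjusted p = 0.0213) passed the test in A4, the second reaching 0.37 with a pseudocount of 0.1 and losing the call with quantile normalization and in 4 of the fits that leave out a library. Another 8 loci, of component TR40230, matched the same lipase protein. The 7 of them that were tested had log2 changes of -0.17 to 0.02 in A9, and none was called. Whether any contig of TR19595 holds both a dehydratase and a lipase stretch was not checked on sequence. FPKM per locus cannot tell from which part of a locus a fragment came.

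Because TR19595 is small beside TR38487 in FPKM, the rise in A9 hardly showed in the sum over the tomato protein. FPKM of the long TR19595 loci divides by 5416 to 7412 bases, of which the dehydratase alignment took up 17.2% to 23.5%. XLOC_018770 had 7162, 6989 and 6248 estimated fragments in A9, beside 63696, 94778 and 62743 at XLOC_053181. The shares below are shares of FPKM and depend on locus length, and shares of fragments were not computed. TR19595 made up 0.113%, 0.0778% and 0.0924% of the Solyc06g074530.1.1 sum in wild type, 0.177%, 0.205% and 0.173% in A4 and 8.26%, 5.37% and 7.26% in A9. The A9 share was above all others, and the mean was 6.96% ± 1.47 there (SD, n = 3). The summed level of Solyc06g074530.1.1 was 2640, 3650 and 3106 FPKM in wild type, 1920, 1896 and 2191 FPKM in A4 and 2928, 3460 and 3072 FPKM in A9. A9 lay within the wild-type range and A4 below it. The protein-level change was -0.64 in A4 (SE 0.13, limma adjusted p = 0.00564), or -0.39 (adjusted p = 0.0320) with quantile normalization, and 0.02 in A9 (SE 0.13, adjusted p = 0.935), beside 40.6% of all tomato proteins called in A4 (20.8% higher and 19.7% lower) and 26.7% in A9 (13.2% higher and 13.5% lower). TR38487 alone gave -0.64 in A4 (SE 0.14, adjusted p = 0.00698), or -0.40 (adjusted p = 0.0257) with quantile normalization, and -0.08 in A9 (SE 0.14, adjusted p = 0.698). The split by component was added after the components had been seen.

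Solyc11g066890.1.1, summed over its 2 loci, fell by 0.73 in A4 (SE 0.17, limma adjusted p = 0.00940) and changed by -0.08 in A9 (SE 0.17, adjusted p = 0.776). XLOC_053182 held 99.7%, 99.4% and 99.6% of that sum in wild type, A4 and A9. The other locus, XLOC_014054, was at 0.836, 0.578 and 1.01 FPKM in wild type, 1.43, 0.868 and 1.08 FPKM in A4 and 0.963, 0.814 and 1.32 FPKM in A9. These groups overlapped, the estimates rest on 8 to 25 fragments a library, and the locus was under the filter.

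Solyc11g072520.1.1 was lower in both lines. The sum over its 5 loci was 21.3, 18.1 and 21.6 FPKM in wild type, 15.8, 15.6 and 14.7 FPKM in A4 and 14.3, 15.2 and 14.9 FPKM in A9. Both lines were below wild type in all libraries. The sum fell by 0.38 in A4 (SE 0.08, limma adjusted p = 0.00554) and by 0.43 in A9 (SE 0.08, adjusted p = 0.00556). Between the lines the difference was -0.05 (SE 0.08, adjusted p = 0.669).

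XLOC_031413, the longest aligned stretch of this protein at a mean of 7.43 FPKM in wild type, was at 8.23, 6.24 and 7.80 FPKM there, 5.75, 5.82 and 5.20 FPKM in A4 and 5.0, 5.46 and 5.40 FPKM in A9. Neither line overlapped wild type. Its log2 changes were -0.35 in A4 (SE 0.10, limma adjusted p = 0.0292) and -0.42 in A9 (SE 0.10, adjusted p = 0.0220). XLOC_031410, which covers the C-terminal residues, was at 5.80, 5.39 and 5.50 FPKM in wild type, 4.87, 3.87 and 4.48 FPKM in A4 and 3.61, 3.83 and 4.03 FPKM in A9. It fell by 0.28 in A4 (SE 0.09, limma adjusted p = 0.0343) and by 0.44 in A9 (SE 0.09, adjusted p = 0.00817).

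XLOC_031411 and XLOC_031414 fell by 0.25 and 0.38 in A4 (limma adjusted p = 0.0347 and 0.0256), and their changes in A9 were -0.16 and -0.31 (adjusted p = 0.172 and 0.0740). XLOC_031412, at 0.653 ± 0.0247 FPKM in wild type, 0.495 ± 0.0701 in A4 and 0.470 ± 0.137 in A9, was under the filter. The call of XLOC_031411 in A4 was lost with the replicate block (0.0559). In the fit of the 2 groups only, the A4 calls of XLOC_031410 (0.0585), XLOC_031411 (0.0662), XLOC_031413 (0.0541) and XLOC_031414 (0.0525) were lost, and with median-ratio scaling those of the first 3 (0.0606, 0.0552 and 0.0506). With a pseudocount of 0.1 the change of XLOC_031411 was -0.39 (0.0350). The calls of the 4 TR26290 loci in A4 were also lost with several single libraries left out, among them wild-type replicate 1 (adjusted p = 0.10, 0.108, 0.0969 and 0.0527 for XLOC_031410, XLOC_031411, XLOC_031413 and XLOC_031414). The call of XLOC_031413 in A9 was lost without wild-type replicate 1 (0.0761) or 3 (0.0776) and without A9 replicate 1 (0.0661) or 3 (0.0553).

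Solyc02g080620.2.1 summed to 2.51, 2.93 and 2.49 FPKM in wild type, 2.86, 3.02 and 3.38 FPKM in A4 and 2.82, 2.31 and 2.52 FPKM in A9. The groups overlapped, and no contrast passed the test (limma log2 changes of 0.17, adjusted p = 0.196, in A4 and -0.04, adjusted p = 0.80, in A9). XLOC_090728 and XLOC_090729 stood at 1.08 ± 0.139 and 1.33 ± 0.225 FPKM in wild type, and neither was called in either line. The TR47564 pair was rarer still: XLOC_080825 was at 0.115, 0.243 and 0.143 FPKM in wild type, 0.341, 0.700 and 0.553 FPKM in A4 and 0.457, 0.245 and 0.276 FPKM in A9. XLOC_080826 was at 0.107, 0.0503 and 0.0534 FPKM in wild type, 0.159, 0.407 and 0.416 FPKM in A4 and 0.0946, 0.266 and 0.0513 FPKM in A9. The A4 libraries lay above wild type at both, on 2 to 26 fragments a library over all groups. They were under the filter, and when all loci were tested they gave log2 changes of 0.39 (limma adjusted p = 0.0173) and 0.30 (adjusted p = 0.0388) in A4.

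**Figure D4:**
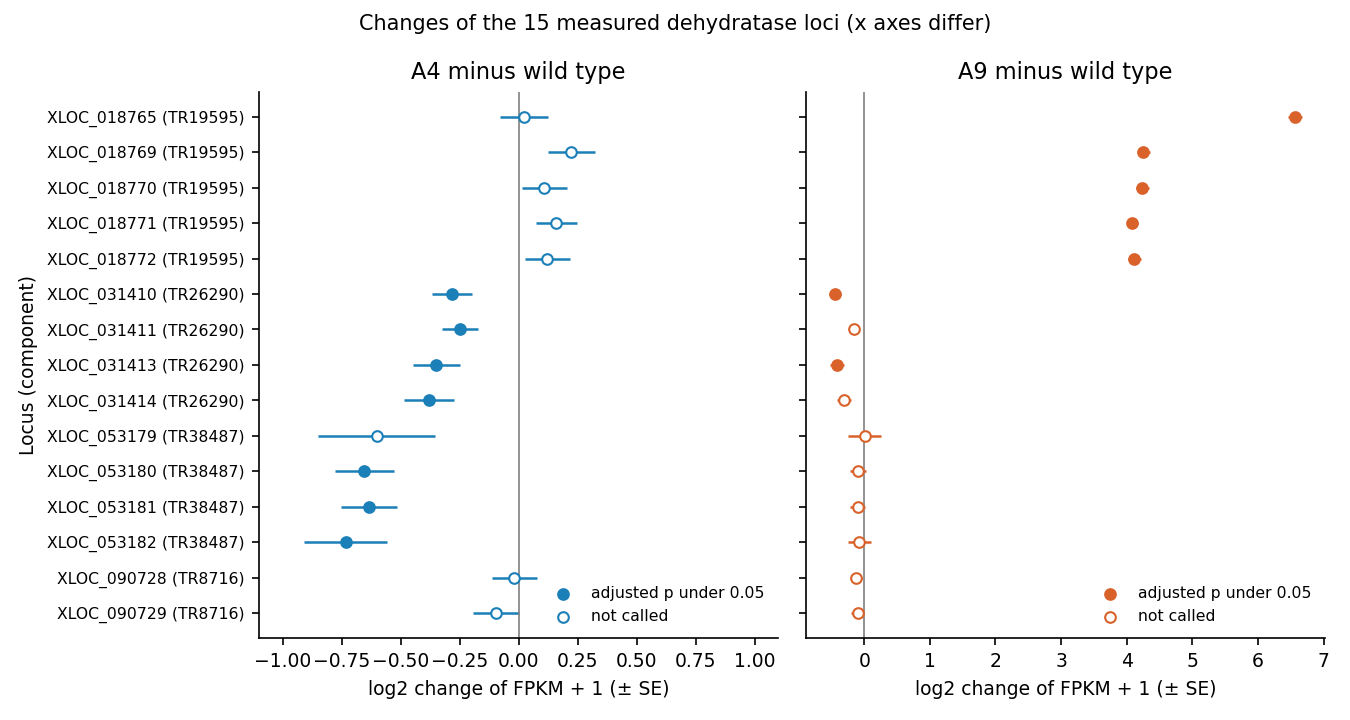
Log2 change of FPKM + 1 with its standard error (x axes, of different range) in A4 and A9 against wild type for the 15 dehydratase loci that passed the filter; filled points have an adjusted p under 0.05. In A4 the called loci are those of TR26290 and 3 of TR38487, all lower, and in A9 the 5 loci of TR19595 lie between 4.09 and 6.56.

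Summed over all 19 loci, the family stood at 2913, 4039 and 3444 FPKM in wild type, 2119, 2091 and 2407 FPKM in A4 and 3183, 3836 and 3377 FPKM in A9. The A4 libraries were all below the others. The mean of A4 was 1260 FPKM below that of A9 and its difference from wild type was -1260 FPKM (exact two-sided permutation p = 0.1 for both, the smallest that 3 against 3 libraries allow with 20 splits). For A9 against wild type the difference was -0.103 FPKM (exact permutation p = 1). Without TR19595 that difference was -214.1 FPKM (exact permutation p = 0.7). Adjusted over the 24 exact tests on totals, shares and ratios, the smallest p was 0.24.

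The largest share differed little between genotypes. Solyc06g074530.1.1 held 90.4% ± 0.226 in wild type, 90.8% ± 0.220 in A4 and 91.0% ± 0.892 in A9 (SD, n = 3 each), and the groups overlapped. Solyc11g066890.1.1 held 8.56%, 9.12% and 9.13% in wild type, 8.51%, 8.46% and 8.24% in A4 and 7.49%, 9.35% and 8.52% in A9, with A4 just below wild type and A9 spread around it. The A4 difference was -0.533 percentage points (exact permutation p = 0.1). Solyc11g072520.1.1 held 0.602% ± 0.143, 0.700% ± 0.0777 and 0.428% ± 0.0283 in wild type, A4 and A9, and Solyc02g080620.2.1 held 0.0771% ± 0.00798, 0.140% ± 0.00484 and 0.0745% ± 0.0142. A4 stood above wild type without overlap for Solyc02g080620.2.1 (difference 0.0629 percentage points, exact permutation p = 0.1), and A9 stood below A4 without overlap for both Solyc11g072520.1.1 and Solyc02g080620.2.1 (differences -0.272 and -0.0655 percentage points, exact permutation p = 0.1 each). These shares divide by the family total, which was lower in A4. The sum of Solyc02g080620.2.1 itself was 2.65 ± 0.247 FPKM in wild type and 3.09 ± 0.268 in A4, and the groups overlapped (limma adjusted p = 0.196). Between A9 and A4 neither sum was called (limma adjusted p = 0.669 for Solyc11g072520.1.1 and 0.146 for Solyc02g080620.2.1).

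Ratios of the 2 abundant isoforms to Solyc11g072520.1.1 had their highest means in A9. The log2 ratio of Solyc06g074530.1.1 to Solyc11g066890.1.1 was 3.33 ± 0.06, 3.43 ± 0.03 and 3.43 ± 0.17 in wild type, A4 and A9 (n = 3 each). The ratio of Solyc06g074530.1.1 to Solyc11g072520.1.1 was 6.89, 7.58 and 7.10 in wild type, 6.84, 6.84 and 7.13 in A4 and 7.58, 7.74 and 7.60 in A9. A9 lay above both other groups, its lowest library just above the highest wild-type one, and wild type and A4 overlapped. TR19595 made up 6.96% of the Solyc06g074530.1.1 sum in A9 on average and 0.0943% in wild type. The ratio without TR19595 was not computed, so the narrow separation from wild type is not shown for TR38487 alone. The A9 difference was 0.45 against wild type and 0.71 against A4 (exact permutation p = 0.1 for both). The ratio of Solyc11g066890.1.1 to Solyc11g072520.1.1 was 3.86 ± 0.39 in wild type, 3.51 ± 0.14 in A4 and 4.21 ± 0.25 in A9, with a difference of 0.70 between the lines (exact permutation p = 0.1). A9 overlapped wild type in that ratio (difference 0.35, exact permutation p = 0.3).

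The direct comparison of the lines tested whether they differ. In A9, 8 dehydratase loci were higher than in A4, 0 were lower and 7 did not pass, beside 18% of all loci called, 8.13% higher and 9.91% lower. Besides the 5 TR19595 loci these were XLOC_053181, XLOC_053180 and XLOC_053182, with log2 differences of 0.53, 0.56 and 0.65 (SE 0.12, 0.13 and 0.18, limma adjusted p = 0.0169, 0.0185 and 0.0349). XLOC_018765, XLOC_018771 and XLOC_018772 passed the filter through A9 alone, so the count and median are no support by themselves. Without A4 replicate 2 the count was 5. The median log2 difference was 0.56 over the 15 loci and 0.02 over all loci. Per tomato protein, the difference was 0.65 for Solyc06g074530.1.1 (SE 0.13, limma adjusted p = 0.00931) and 0.65 for Solyc11g066890.1.1 (SE 0.17, adjusted p = 0.0244), beside 25.5% of all proteins called (11.3% higher and 14.2% lower). The second call was lost without A4 replicate 1 (0.0553), 2 (0.0755) or 3 (0.0537) and without A9 replicate 2 (0.0577) or 3 (0.0582). TR38487 of Solyc06g074530.1.1 differed by 0.55 (adjusted p = 0.0219), a call lost without A4 replicate 1 (0.0539) or 2 (0.0735) or A9 replicate 2 (0.0551).

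Other enzymes around phenylalanine were read from the tomato names (169 loci of 12 steps, 143 tested). In A4, 71 were lower, 12 higher and 60 did not pass, or 49.7% lower beside 16.6% of all loci. In A9, 32 were lower, 6 higher and 105 did not pass, or 22.4% lower beside 10.3% of all loci. Between the lines 25 were higher and 7 lower in A9, or 17.5% and 4.90% beside 8.13% and 9.91% of all loci. Counts per step stand beside 16.6% of all loci lower and 15.6% higher in A4, and 10.3% lower and 8.98% higher in A9. These shares were not matched to the lists by level. Among loci averaging 5 FPKM or more, 4771 of 20297 were lower in A4 and 3020 higher. Loci of a list may also share a component, so the counts are not counts of independent genes. The count of 32 was 21 without A9 replicate 1, 14 without A9 replicate 3, and 17 and 16 when wild-type replicate 2 or 3 was left out. The count of 25 was 16 without A4 replicate 1, 10 without A4 replicate 3, 12 without A9 replicate 1 and 15 without A9 replicate 2. With the replicate block, 10 loci rather than 6 were higher in A9 than in wild type, and 12 rather than 7 were lower in A9 than in A4.

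Entry into the pathway runs through DAHP synthase, where 5 of 13 tested loci were lower in A4 and 3 in A9. Its most abundant locus, XLOC_040680, was at 3560 ± 358.5 FPKM in wild type, 2615 ± 44.6 FPKM in A4 and 3745 ± 169.5 FPKM in A9 (limma log2 change -0.44, adjusted p = 0.00631, in A4, with -0.13 and adjusted p = 0.349 after quantile normalization). Dehydroquinate dehydratase or shikimate dehydrogenase, which make shikimate, had 15 of 17 loci lower in A4 and 12 lower and 1 higher in A9. There XLOC_003144 went from 217.0 ± 4.83 FPKM in wild type to 37.1 ± 4.75 in A4 and 41.8 ± 2.43 in A9 (log2 changes -2.53 and -2.35, limma adjusted p = 5.51e-07 and 7.44e-07). No locus of 3-dehydroquinate synthase passed the filter (0 of 11).

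Shikimate kinase had 5 of 17 loci lower and 4 higher in A4 (29.4% and 23.5%) and 0 called in A9, and EPSP synthase 7 of 15 lower in A4 and 0 called in A9. Chorismate synthase, which closes the shikimate pathway, had 6 of 8 loci lower in A4 and 6 lower in A9. Its top locus XLOC_073766 changed by -0.37 in A4 and -0.34 in A9 (limma adjusted p = 0.0214 and 0.0428). Those calls were lost with quantile normalization (-0.06 and -0.14) and without several single libraries, and in A9 also with the replicate block (0.0576). Chorismate mutase, which makes prephenate, had 10 of 17 loci lower in A4 and 9 in A9, and aspartate or prephenate aminotransferase, which includes the step to arogenate, 7 of 23 lower and 2 higher in A4 and 0 called in A9.

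Prephenate or arogenate dehydrogenase, the branch towards tyrosine, went the other way, with 4 of 6 loci higher in each line. XLOC_019220 stood at 0.715 ± 0.0933 FPKM in wild type, 54.2 ± 3.68 FPKM in A4 and 3.76 ± 1.95 FPKM in A9 (limma log2 changes 5.01 and 1.39, adjusted p = 1.60e-06 and 0.00484). With a pseudocount of 0.1 the A9 change was 2.12. The log2 difference of A9 from A4 was -3.62 (limma adjusted p = 3.14e-05). XLOC_019220 was picked by its mean over all 9 libraries, which its A4 level dominates. Its changes involving A4 and their p-values are therefore no support by themselves. Among the users of phenylalanine, 11 of 17 phenylalanine ammonia-lyase loci were lower in A4 and 0 were called in A9. Its most abundant locus, XLOC_082237, was at 3470 ± 674.2 FPKM in wild type, 2518 ± 297.0 in A4 and 3839 ± 719.7 in A9, and the A4 change of -0.45 had a limma adjusted p of 0.0926, or 0.0464 with the replicate block and 0.0395 without wild-type replicate 1.

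Aromatic amino acid decarboxylase, whose petunia relative makes phenylacetaldehyde, had 3 of 8 loci lower and 2 higher in A4 and 2 lower and 1 higher in A9. XLOC_046369 fell from 1567 ± 178.8 FPKM to 732.3 ± 38.3 in A4 and 1161 ± 87.7 in A9 (limma log2 changes -1.09 and -0.43, adjusted p = 1.09e-04 and 0.0222). The A9 call was lost with quantile normalization (0.153) and without wild-type replicate 2 (0.0545) or 3 (0.0770) or A9 replicate 2 (0.0592) or 3 (0.0736). Cationic amino acid transporters had 2 of 2 tested loci lower in A4 and 0 called in A9, and the A4 call of XLOC_082887 (-1.04, adjusted p = 0.0250) did not hold when any of A4 replicates 2 (0.0601) and 3 (0.0861) and wild-type replicates 1 (0.0727) and 3 (0.0512) was left out.

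**Figure D5:**
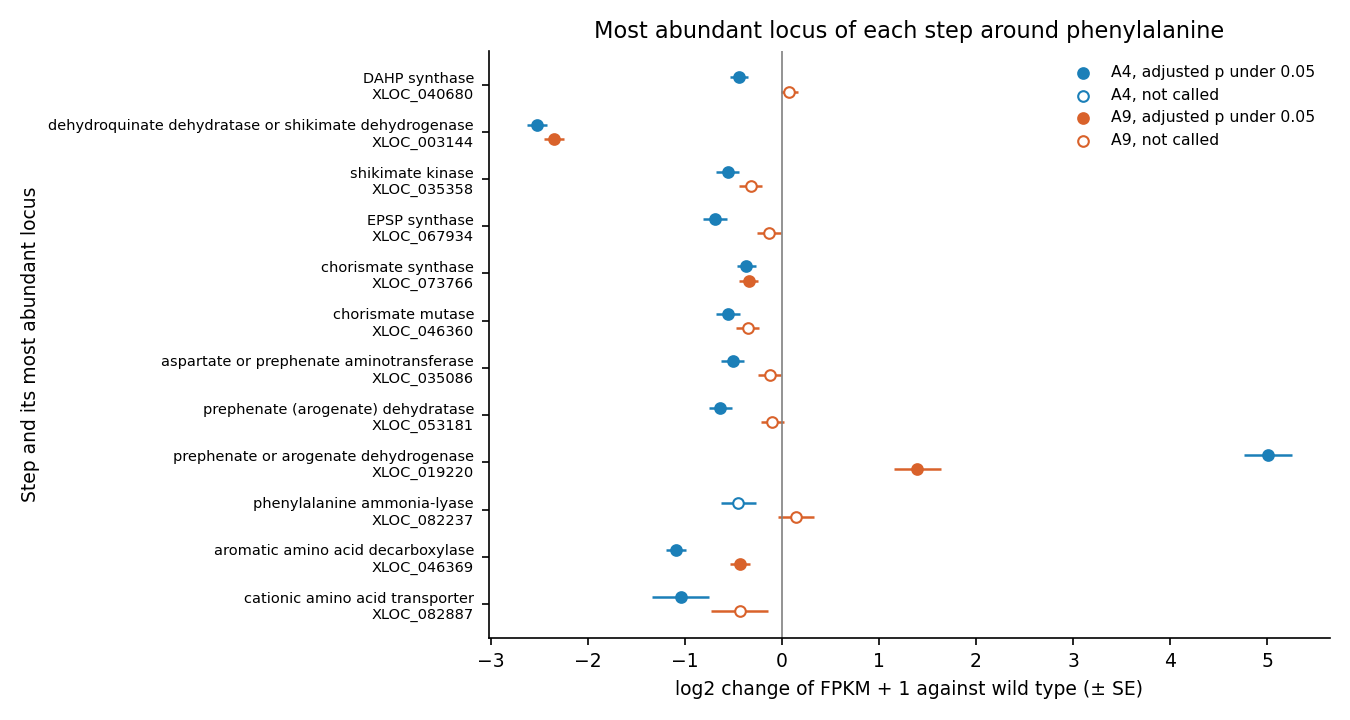
Log2 change of FPKM + 1 against wild type with its standard error (x axis) for the most abundant locus of each step around phenylalanine that passed the filter (y axis), in A4 and A9; filled points have an adjusted p under 0.05. The dehydratase XLOC_053181 (-0.63 in A4, -0.10 in A9) has values near those of EPSP synthase XLOC_067934 (-0.69 and -0.13) and the aminotransferase XLOC_035086 (-0.51 and -0.13). The dehydrogenase XLOC_019220, picked by a mean over the 9 libraries that its A4 level dominates, stands at 5.01 in A4 and 1.39 in A9.

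Loci with profiles closest to those of the most abundant dehydratase locus of each protein were sought among 16489 loci of other components. These had a mean of at least 5 FPKM and a tomato match with an informative name. Loci with no match, or with names such as unknown or hypothetical, were not searched. Repeats of a tomato protein or assembled gene were dropped, so closer loci may exist. Likeness was the root mean square difference of centred log2(FPKM + 1) over the 9 libraries, and it describes shape only. For XLOC_053181 the closest were XLOC_048416, a Poly(U)-specific endoribonuclease-A (0.0476), XLOC_053397, a caffeoyl-CoA O-methyltransferase (0.0680), and XLOC_032857, an ovarian cancer-associated gene 2 protein homolog (0.0710), where the median locus was at 0.331. XLOC_053397, an enzyme of phenylpropanoid methylation, was at 5319 ± 505.5 FPKM in wild type, 3670 ± 200.7 in A4 and 4970 ± 533.3 in A9. For XLOC_053182 they were XLOC_036909, a phosphatidylinositol transfer protein (0.102), XLOC_032853, another locus of the same ovarian cancer-associated protein match (0.112), and XLOC_031828, a transcription factor (0.137), with a median of 0.402.

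For XLOC_031413 the closest profiles were those of XLOC_006783, an IAA-amino acid hydrolase (0.0772), XLOC_035739, a serine/threonine protein kinase (0.0785), and XLOC_084901, a zinc finger protein LSD1 (0.0795), with a median of 0.274. For XLOC_090729 they were XLOC_051494, an ADP-ribosylation factor (0.0589), XLOC_008354, a calmodulin (0.0623), and XLOC_068805, an oxidoreductase family protein (0.0634), with a median of 0.221. All 12 profiles were chosen for their likeness over the same 9 libraries.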

How the data were processed

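Corolla RNA of 3 genotypes, 3 libraries each, was sequenced. Expression values were deposited by the authors as FPKM. Per the file headers, a second deposited table lists for each locus its best tomato protein, the aligned positions, the bit score, the identity as a percent and an e-value of at most 0.001. FastQC 0.11.2 and Bowtie2 2.2.6 are listed in the submitters' processing notes. The assembler, the expression program and the assignment of fragments that match several loci were not given in the sources used here. Groups and replicate numbers came from sample titles. No library was a copy of another, and no reference genome or sequence was used.

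Loci averaging 1 FPKM or more entered a fit of 3 group means to log2(FPKM + 1) in limma 3.58.1 under R 4.3.3, with a trended variance prior. Calls needed a Benjamini-Hochberg adjusted p under 0.05. This scale understates changes of low loci. The same fit was run on FPKM summed over the 14288 tomato proteins tested and per protein and component. Totals, shares and log2 ratios were compared by exact two-sided permutation tests. Fits were tested on simulated data. Fragments were estimated from the steps of low values, of which 100% lay within 0.1 of a whole multiple. No count model was run, because the values are FPKM.

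Named genes were all family loci, the most abundant locus of each listed pathway step, and the 3 candidate loci nearest in profile to the top locus of each protein. Other named loci were chosen after their values were seen. The members and lists were chosen with earlier results of these data known, and the patterns for shikimate kinase and chorismate synthase were anchored after names were seen.

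Replicate numbers are shared between groups. Deviations of same-numbered libraries correlated at 0.248, 0.344 and 0.104 for wild type with A9 and at 0.240, 0.261 and 0.249 for A4 with A9. All were above 0.1, so these were taken as paired from the data alone. Wild type with A4 gave 0.229, 0.192 and -0.125 and was not. The reported fits and exact tests are nonetheless unpaired. Pairing enters only through the replicate block, an alternative that was not run for shares and ratios. Alternatives were other pseudocounts, filters, scalings, the replicate block, 2-group fits and leaving out each library.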

Additional observations from a re-analysis of the deposited data

Results flagged for a closer look

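Solyc06g074530.1.1 changed differently in the 2 lines, by a log2 difference of 0.65 between A9 and A4 (limma adjusted p = 0.00931). Split by component, the difference was 5.53 for TR19595 (adjusted p = 2.33e-08) and 0.55 for TR38487 (adjusted p = 0.0219). Solyc11g066890.1.1 also differed between the lines, by 0.65 (limma adjusted p = 0.0244). Outside the family, the lipase locus XLOC_018768 of TR19595 was higher in A9 than in wild type by 2.33 on the log2 scale (limma adjusted p = 3.70e-07).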

How the results depend on the processing

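Over 105 results and 21 alternatives, 1429 of 1565 recomputed values kept their direction and side of the threshold or stayed within 1.5 times a count, and 25 changed sign. The exact tests cannot go below 0.1, so totals, shares and ratios could change only in sign. Leaving out a library of the third group keeps a limma change as it was and moves only its p-value. The tally is therefore no measure of robustness. Quantile normalization turned the sign of the A9 change of TR38487 of Solyc06g074530.1.1 (0.010), of the A4 changes of XLOC_018765 (-0.17), XLOC_018771 (-0.13) and XLOC_018772 (-0.16), and of the A9 change of XLOC_067934, an EPSP synthase (0.0913). Median-ratio scaling did so for XLOC_090728 in A4 (0.00428), and taking the most abundant locus for Solyc02g080620.2.1 in A4 (-0.10) and Solyc06g074530.1.1 in A9 (-0.10). The A9 minus wild type difference of the family total was 22.0 FPKM without loci under 300 bases, 8.67 FPKM as a length-weighted mean and 67.4 FPKM with median-ratio scaling. None of these values passed a test, and the cause was not tested.

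Dehydratase loci called higher in A4 numbered 2 with a pseudocount of 0.1 and 2 with no filter, beside 8240 of 53284 and 14522 of 94534 loci. Those called lower in A4 numbered 4 with a filter of 5 FPKM and 4 with median-ratio scaling, beside 4771 of 20297 and 7530 of 53284 loci. In the fit of the 2 groups only, 3 were lower in A4. With the filter of 5 FPKM, which tests fewer loci, 1 was lower in A9, beside 2809 of 20297 loci. That filter left 6 phenylalanine-branch loci higher in A4 and 4 lower in A9 than in A4, beside 3020 and 1954 of 20297 loci. The replicate block gave 10 branch loci higher in A9 than in wild type and 12 lower in A9 than in A4, beside 5655 and 6008 of 53284 loci. It changed no call per tomato protein, and changed the calls of XLOC_031411, XLOC_053179 and XLOC_082237 in A4 and XLOC_073766 in A9. For the family total the paired p cannot go below 0.25.

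Leaving out each library in turn, the A9 minus wild type change ranged from -0.20 to 0.0327 for TR38487 of Solyc06g074530.1.1, from -0.0922 to 0.0171 for Solyc02g080620.2.1, from -0.10 to 0.14 for Solyc06g074530.1.1, from -0.23 to 0.0659 for Solyc11g066890.1.1 and from -0.0133 to 0.31 for XLOC_082237; the A4 change of XLOC_090728 ranged from -0.0712 to 0.0191. The difference of Solyc11g066890.1.1 between the lines ranged from 0.50 to 0.79. The A9 minus wild type difference ranged from -276.3 to 286.8 FPKM for the family total and from -0.00961 to 0.00455 percentage points for the share of Solyc02g080620.2.1. Dehydratase counts ranged from 3 to 7 lower in A4, from 1 to 2 lower in A9 and from 5 to 9 higher in A9 than in A4. Branch counts ranged from 14 to 33 lower in A9 and from 10 to 25 higher in A9 than in A4, lowest without A9 replicate 3 and A4 replicate 3. Depth limits XLOC_014054, XLOC_080825 and XLOC_080826, with 2 to 26 fragments a library, and XLOC_018765 outside A9, with 0 to 2.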
